A study of Arabidopsis thaliana with 8 samples.

Results

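The 10 genes described here encode the core machinery that makes and uses microRNAs and trans-acting small interfering RNAs in Arabidopsis thaliana. They were chosen by locus, as every array probe annotated to DCL1 (AT1G01040), AGO1 (AT1G48410), HYL1 (AT1G09700), SE (AT2G27100), HEN1 (AT4G20910), HST (AT3G05040), RDR6 (AT3G49500), SGS3 (AT5G23570), DCL4 (AT5G20320) and AGO7 (AT1G69440), among 25665 loci with a probe. Each gene had 1 probe. All 10 were well above background on 4 of 4 arrays in the mutant and in the wild type of both tissues, so none entered through the filter on dim probes that left 21446 loci to test. Where a probe lies along its transcript is not given in the files, and 1 probe cannot tell apart isoforms or 3′ ends. In the paps1-1 mutant 9 of the 10 genes were called lower than wild type in inflorescences, against 27.5% of all loci tested. In seedlings 7 of the 10 were called lower, against 29.3%. A call is a limma adjusted p under 0.05, and the genes were chosen with earlier results of these data known.

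The study compared paps1-1, a mutant allele of the nuclear poly(A) polymerase PAPS1, with its wild type (WT), both in the Ler accession. Inflorescences came from the main stems of 30-day plants on soil, cleared of open flowers, and whole seedlings with roots came from MS plates at 11 days for paps1-1 and 9 days for WT, so that the earliest true leaves were alike in stage. In seedlings a gap of 2 days in age therefore goes with genotype, and age and genotype cannot be told apart. All plants grew at 21 °C in long days and were collected 5 to 7 h after lights on; 8 two-colour arrays held 4 biological replicates (n = 4) per genotype and tissue, with the mutant in Cy5 on replicates 1 and 2 and in Cy3 on replicates 3 and 4.

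MicroRNAs are cut in the nucleus from folded precursor transcripts by the endonuclease DCL1, helped by the RNA-binding protein HYL1 and the zinc finger protein SE. The methyltransferase HEN1 then protects their 3′ ends, the exportin-like protein HST takes part in moving them to the cytoplasm, and AGO1 uses them to cleave or repress messenger RNAs. Trans-acting siRNAs need further steps: a microRNA loaded in an argonaute cuts a TAS transcript, SGS3 stabilizes the pieces, the RNA-dependent RNA polymerase RDR6 copies them and DCL4 dices the product. AGO7 serves the TAS3 branch of that pathway, whose siRNAs act on auxin response factors, and is known for its part in leaf form and the timing of juvenile leaves. DCL1, AGO1 and AGO2 transcripts are themselves targets of microRNAs.

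Ratios listed array by array are the log2 of mutant over wild type on that array. Other ratios of a gene in a tissue are estimates of a limma fit, unless a mean or another setting is named. That fit covered all 8 arrays, with 1 term per tissue and a dye term. Each ratio is relative to the typical transcript of the array, which the normalization sets to 0. A ratio is one of array signal. The labelling primer is not known, and whether a change in signal is one of transcript level or of poly(A) tail length, in a mutant of a poly(A) polymerase, was not tested. A gene is called where the Benjamini-Hochberg adjusted p over all 21446 loci is under 0.05. Much of the genome passed: 27.5% of loci were called lower and 26.2% higher in inflorescences, and 29.3% lower and 28.6% higher in seedlings. Log2 ratios correlated across loci with r of 0.789 to 0.905 between inflorescence arrays, 0.702 to 0.895 between seedling arrays, and 0.369 to 0.535 between tissues. PAPS1 itself (AT1G17980) was at 0.10 ± 0.05 (adjusted p = 0.117) and 0.00 ± 0.05 (adjusted p = 0.973), and as the lesion is not in the labels, this transcript does not check the genotypes. In bulk tissue, fewer cells of a type and less RNA per cell cannot be told apart.

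**Figure D1:**
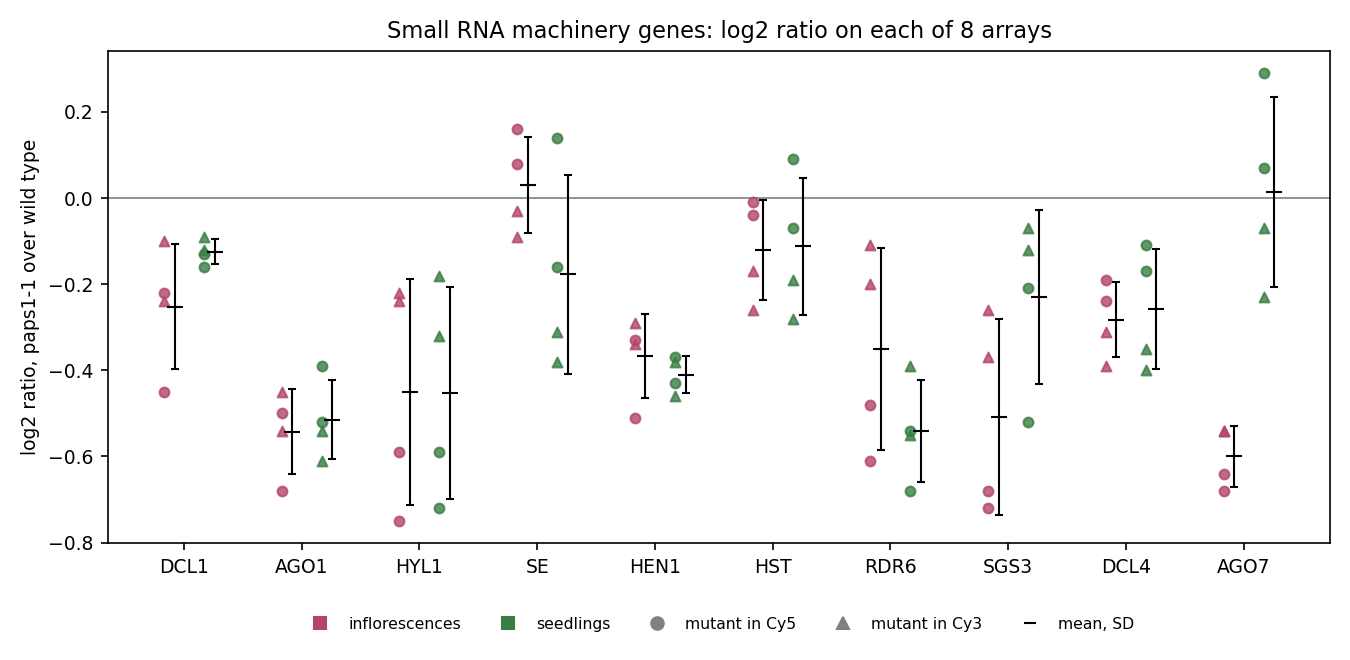
Log2 ratio of paps1-1 over wild type for each of the 10 genes on each array, with inflorescences in magenta and seedlings in green; circles are arrays with the mutant in Cy5, triangles arrays with it in Cy3, and black marks the mean ± SD of 4 arrays. DCL1, AGO1, HYL1, HEN1, RDR6, SGS3 and DCL4 lie below 0 on all 8 arrays, and AGO7 lies between −0.68 and −0.54 in inflorescences and on both sides of 0 in seedlings.

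The count of lower genes exceeded the background in both tissues. The 10 genes were chosen with earlier results of these data known, so this excess is not independent support for a change of the machinery. In inflorescences 9 of 10 fell (background 27.5%), with SE as the gene that was not called, and the median of the 10 ratios was −0.36 against 0 for all loci tested. In seedlings 7 of 10 fell (background 29.3%), with DCL1, HST and AGO7 not called, and the median was −0.24. The median over the 10 genes was below 0 on every array, from −0.56 to −0.26 in inflorescences and from −0.32 to −0.19 in seedlings. AGO1, HYL1, HEN1, RDR6, SGS3 and DCL4 fell in both tissues, which is 60% of the genes, against 3705 of 21446 loci, or 17.3%. The called changes were moderate, from 8.16% to 34% below wild type in inflorescences.

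Among the microRNA-producing enzymes, DCL1 transcript gave ratios of −0.22, −0.45, −0.10 and −0.24 on inflorescence arrays 1 to 4. On the seedling arrays they were −0.16, −0.13, −0.09 and −0.12. All 8 arrays lay below 0, and the seedling arrays stayed within a narrow band close to it. DCL1 fell by 0.25 on the log2 scale in inflorescences (SE 0.05, limma adjusted p = 0.0023), 16% below wild type. In seedlings the estimate of −0.13 ± 0.05 missed the threshold (limma adjusted p = 0.0584), with an unadjusted 95% interval of −0.24 to −0.01.

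HYL1, the partner that helps DCL1 place its cuts, gave ratios of −0.59, −0.75, −0.24 and −0.22 on inflorescence arrays 1 to 4. In seedlings its ratios were −0.59, −0.72, −0.18 and −0.32. All arrays were below 0, but those with the mutant in Cy5 averaged −0.67 and −0.66 in inflorescences and seedlings and those with the mutant in Cy3 only −0.23 and −0.25. The balanced dyes and the dye term take this gap out of the estimates, which were −0.45 ± 0.05 in each tissue (limma adjusted p = 3.96e-05 and 3.15e-05), 26.8% and 26.9% below wild type.

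SE, which also works in the splicing of messenger RNA, was the gene whose inflorescence ratios lay closest to 0, at 0.16, 0.08, −0.09 and −0.03. Its seedling ratios were 0.14, −0.16, −0.38 and −0.31. The arrays fell on both sides of 0 in inflorescences, whereas 3 of 4 were below it in seedlings. The inflorescence estimate was 0.03 ± 0.06 (limma adjusted p = 0.66), with an interval of −0.09 to 0.16. In seedlings SE fell by 0.18 (SE 0.06, limma adjusted p = 0.0208), 11.6% below wild type. That call was lost without seedling replicate 2 (−0.13, limma adjusted p = 0.118), replicate 3 (−0.15, 0.109) or replicate 4 (−0.18, 0.0618), and the estimate was −0.30 with median centring.

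HEN1, the methyltransferase that protects both microRNAs and siRNAs, had one of the most even responses. Its ratios were −0.33, −0.51, −0.34 and −0.29 in inflorescences. In seedlings they were −0.43, −0.37, −0.38 and −0.46. All 8 arrays lay well below 0 with little regard to dye. HEN1 fell by 0.37 (SE 0.05, limma adjusted p = 0.000147) in inflorescences and by 0.41 (SE 0.05, limma adjusted p = 5.72e-05) in seedlings, 22.4% and 24.7% below wild type.

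HST, the exportin-like factor, gave ratios of −0.01, −0.04, −0.26 and −0.17 in inflorescences. In seedlings they were 0.09, −0.07, −0.19 and −0.28. In both tissues the arrays with the mutant in Cy3 were the lower pair. The inflorescence estimate of −0.12 ± 0.05 passed the threshold narrowly (limma adjusted p = 0.046), 8.16% below wild type, and no longer did with the replicate number as a block (−0.12, limma adjusted p = 0.0709) or without inflorescence replicate 1, 2, 3 or 4 or seedling replicate 2 or 3 (adjusted p between 0.0519 and 0.157). The seedling estimate was −0.11 ± 0.05 (limma adjusted p = 0.0644), and −0.15 (limma adjusted p = 0.0213) without seedling replicate 1.

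AGO1, the main effector of plant microRNAs, had a large and even decrease. On inflorescence arrays 1 to 4 its ratios were −0.50, −0.68, −0.54 and −0.45. Those of the seedling arrays were −0.52, −0.39, −0.54 and −0.61. No array of either tissue came above −0.39. AGO1 fell by 0.54 (SE 0.05, limma adjusted p = 2.4e-05) in inflorescences and by 0.52 (SE 0.05, limma adjusted p = 2.73e-05) in seedlings, 31.4% and 30.1% below wild type. Its tissue estimates differed by 0.03, with an interval of −0.14 to 0.20.

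Of the 10 genes, 4 serve the trans-acting siRNA branch. All 4 were called lower in inflorescences (background 27.5%) and 3 of 4 in seedlings (background 29.3%). RDR6, the polymerase that copies cleaved TAS transcripts, gave ratios of −0.48, −0.61, −0.11 and −0.20 in inflorescences. In seedlings they were −0.54, −0.68, −0.39 and −0.55. All 8 arrays were below 0, and the 2 inflorescence arrays with the mutant in Cy3 were the closest to it. RDR6 fell by 0.35 (SE 0.06, limma adjusted p = 0.00058) in inflorescences and by 0.54 (SE 0.06, limma adjusted p = 2.74e-05) in seedlings, 21.4% and 31.3% below wild type. RDR6 was the gene of the 10 with the lowest seedling estimate.

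SGS3, which works beside RDR6, gave ratios of −0.68, −0.72, −0.26 and −0.37 in inflorescences. The seedling ratios were −0.21, −0.52, −0.12 and −0.07. Every array was below 0, and in each tissue the arrays with the mutant in Cy5 were the lower pair. SGS3 fell by 0.51 (SE 0.06, limma adjusted p = 4.99e-05) in inflorescences and by 0.23 (SE 0.06, limma adjusted p = 0.00584) in seedlings, 29.6% and 14.6% below wild type.

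DCL4, the dicer of trans-acting siRNAs, gave ratios of −0.19, −0.24, −0.31 and −0.39 in inflorescences. In seedlings they were −0.17, −0.11, −0.40 and −0.35. All 8 arrays lay below 0, here with the lower values on the arrays with the mutant in Cy3. DCL4 fell by 0.28 (SE 0.04, limma adjusted p = 0.000371) in inflorescences and by 0.26 (SE 0.04, limma adjusted p = 0.000581) in seedlings, 17.8% and 16.2% below wild type. With median centring the seedling estimate was −0.41.

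AGO7, the argonaute of the TAS3 branch, fell in inflorescences and was not called in seedlings. Its inflorescence ratios were −0.68, −0.64, −0.54 and −0.54, the narrowest range among the 10 genes in that tissue. Its seedling ratios were 0.29, 0.07, −0.07 and −0.23. The seedling arrays with the mutant in Cy5 lay above 0 and those with it in Cy3 below. The inflorescence estimate was −0.60 ± 0.07 (limma adjusted p = 7.67e-05), 34% below wild type, which was the largest decrease of the 10 genes there. In seedlings the estimate was 0.01 ± 0.07 (limma adjusted p = 0.886), with an interval of −0.15 to 0.17, which turned to −0.17 (limma adjusted p = 0.185) when arrays were centred on their median in place of loess.

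**Figure D2:**
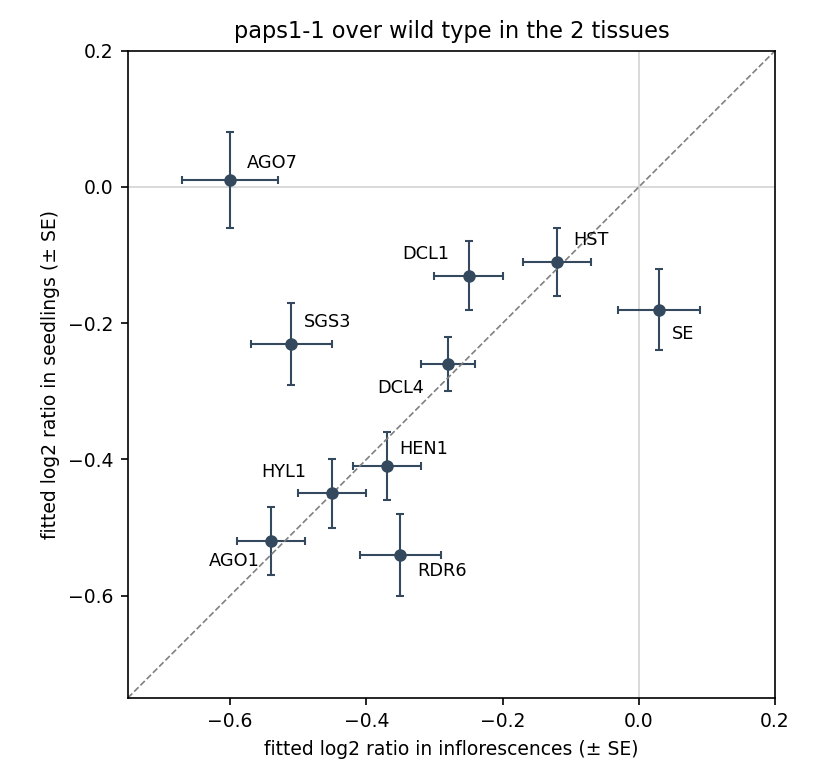
Fitted log2 ratio of paps1-1 over wild type in inflorescences (x axis) and in seedlings (y axis) for the 10 genes, with SE bars and a dashed line of equal ratios. AGO1, HYL1, HEN1, HST and DCL4 lie on or near the line, and AGO7, at −0.60 and 0.01, lies farthest from it.

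Whether the response differed between tissues was tested directly, as the seedling estimate minus the inflorescence estimate. This difference was called at 32.2% of all loci in either direction, and at 2 of the 10 genes, so the share among these genes was not above the background. The AGO7 difference was 0.61 ± 0.10 (limma adjusted p = 0.00155), with an interval of 0.39 to 0.84. The SGS3 difference was 0.28 ± 0.08 (limma adjusted p = 0.0242), and it was no longer called without inflorescence replicate 1 (0.27, limma adjusted p = 0.0618), replicate 2 (0.26, 0.0681) or replicate 4 (0.27, 0.0621). For SE the difference was −0.21 ± 0.08 (limma adjusted p = 0.0702) and for RDR6 −0.19 ± 0.08 (limma adjusted p = 0.0922). Both passed when seedling replicate 1 was left out, at −0.28 (limma adjusted p = 0.00696) and −0.25 (limma adjusted p = 0.0326). The inflorescence arrays shared 1 slide and the seedling arrays another, and these differences cannot be told apart from a difference between slides.

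Each channel was also fitted on its own, to compare wild-type seedlings with wild-type inflorescences and to show the level of each probe in the 4 groups. Levels are normalized log2 intensities and are compared only within a probe. Tissue goes with slide, with age (30 days against 9 days in wild type) and with growth on soil or plates. These cannot be told apart in this or any later comparison of the wild-type tissues. All 10 genes differed between the wild-type tissues: 9 were lower in seedlings, where the background was 43.4% of 21334 loci, and RDR6 was higher, where it was 38.1%. The median difference was −0.54, against −0.05 for all loci. With no normalization between arrays, which moved the median of all loci to −0.71, the 9 lower genes ran from −0.95 for SE to −2.11 for AGO7.

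AGO7 had the largest wild-type contrast, with levels of 11.06, 11.06, 10.92 and 11.01 in wild-type inflorescences and 9.60, 9.69, 9.80 and 9.77 in wild-type seedlings. Mutant inflorescences held 10.38, 10.42, 10.38 and 10.48, between the wild-type tissues, and mutant seedlings 9.89, 9.76, 9.73 and 9.54, overlapping the wild-type seedlings. The wild-type difference was −1.30 ± 0.07 (limma adjusted p = 2.06e-11), 59.3% lower in seedlings.

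AGO1 levels fell into 4 separate ranges. They were 12.89 to 13.02 in wild-type inflorescences, 12.34 to 12.45 in mutant inflorescences, 11.92 to 12.05 in wild-type seedlings and 11.39 to 11.53 in mutant seedlings. No neighbours in this order overlapped, and the wild-type tissue difference of −0.95 ± 0.06 (limma adjusted p = 4.79e-11) was larger than either mutant effect. DCL1 had the same order with a wild-type difference of −0.93 ± 0.05 (limma adjusted p = 5.13e-11). Its mutant inflorescences at 12.12 to 12.42 stood below the wild-type ones at 12.47 to 12.57. In seedlings the mutant range of 11.40 to 11.48 and the wild-type range of 11.56 to 11.60 were close but did not meet.

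HEN1, HYL1, SGS3 and DCL4 kept that order of means, with smaller wild-type differences of −0.56, −0.52, −0.62 and −0.37. Mutant inflorescences and wild-type seedlings overlapped for HYL1 (11.87 to 12.33 and 11.94 to 12.13), SGS3 (11.82 to 12.12 and 11.75 to 11.96) and DCL4 (8.68 to 8.75 and 8.55 to 8.75), but not for HEN1 (9.29 to 9.46 and 9.10 to 9.24). HST ran from 8.19 ± 0.08 (SD, n = 4) in wild-type inflorescences to 7.72 ± 0.16 in mutant seedlings, and its 2 seedling groups overlapped. SE stood at 11.42 ± 0.05 in mutant and 11.39 ± 0.07 in wild-type inflorescences, which overlapped, and its mutant seedlings spread from 10.82 to 11.29 across the wild-type range of 11.13 to 11.23.

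RDR6 had another order. Wild-type seedlings were highest, at 11.39, 11.37, 11.16 and 11.27, and mutant inflorescences lowest, at 10.43, 10.34, 10.71 and 10.75. Mutant seedlings (10.69 to 10.85) overlapped both mutant and wild-type inflorescences (10.81 to 10.95). The wild-type difference of 0.39 ± 0.07 (limma adjusted p = 5.44e-05) turned to −0.37 (limma adjusted p = 0.00421) with no normalization between arrays, so that RDR6 stayed above the median in both.

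**Figure D3:**
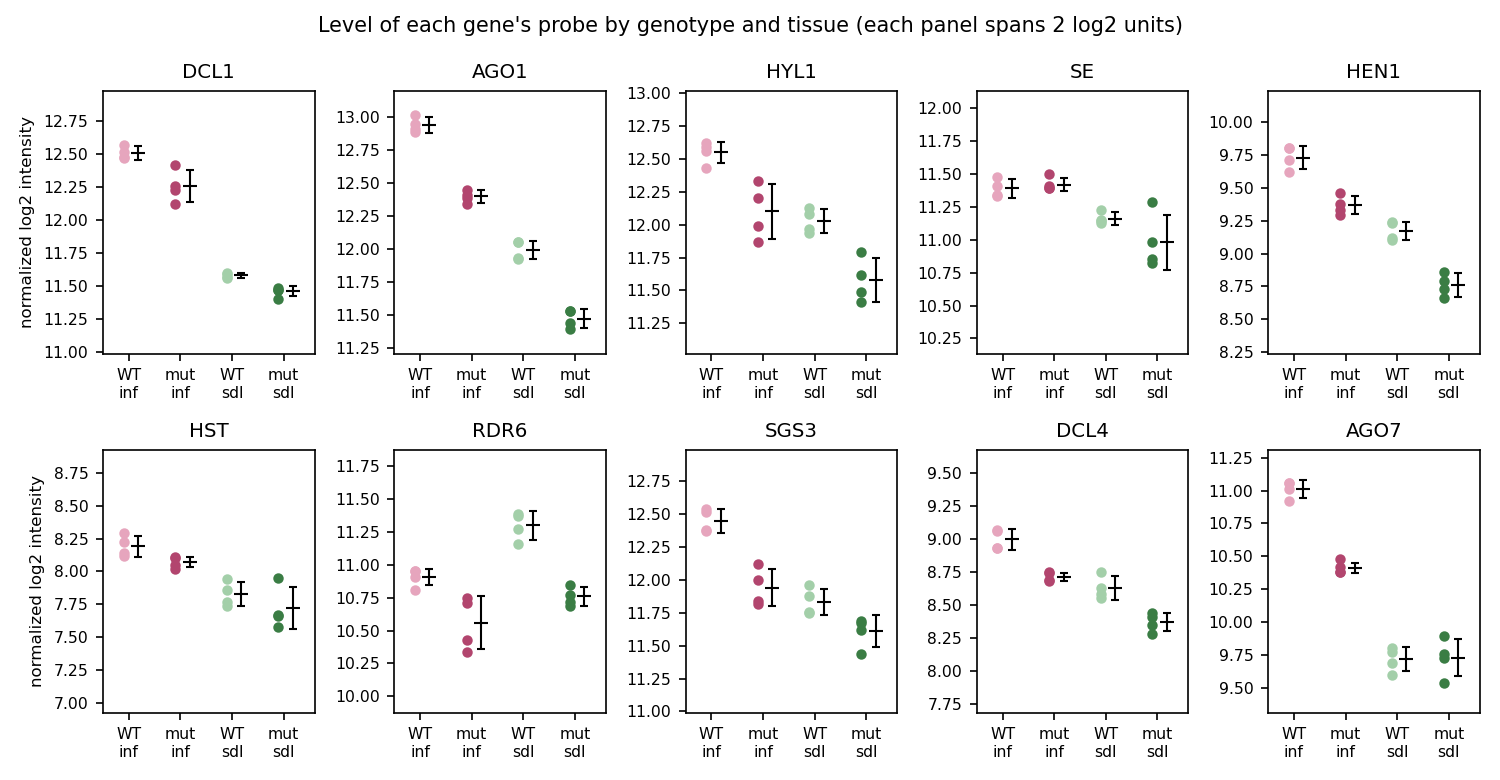
Normalized log2 intensity of each gene's probe in wild-type (WT) and paps1-1 (mut) inflorescences (inf) and seedlings (sdl); points are the 4 replicates and black marks the mean ± SD. Each panel spans 2 log2 units, AGO1 falls in 4 steps, and RDR6 is highest in wild-type seedlings.

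Markers of the tissues were read beside these results. In wild-type seedlings against wild-type inflorescences the floral markers SEP3, AG, AP3 and PI were lower, from −3.93 for SEP3 to −7.94 for PI on the log2 scale. LFY was not well above background on any wild-type seedling array and AP1 on 1 of 4, so no fold is given for them. In mutant against wild-type inflorescences, 2 of 6 floral markers rose and the other 4 were not called, with the median per array between 0.06 and 0.17. Of 10 cell division markers 6 rose and 2 fell in inflorescences, and 3 rose and 4 fell in seedlings. Over all loci 26.2% rose and 27.5% fell in inflorescences, and 28.6% rose and 29.3% fell in seedlings. The seedling counts of cell division markers were near that background, as was the count of floral markers that rose in inflorescences. In seedlings 5 of 8 root markers rose and SHR fell (−0.19, limma adjusted p = 0.0133), with the median per array between 0.48 and 0.65. With median centring the root markers MYB66 and RHD6 were no longer called (limma adjusted p = 0.0566 and 0.187). In seedlings 6 of 6 nuclear photosynthesis genes fell, with the median per array between −1.38 and −0.80. In inflorescences 4 of 6 fell and RBCS1A rose (0.25, limma adjusted p = 0.00421), with array medians of −0.64 to −0.24. SHR, SCR, COBL9 and RBCS1A are named after their values were seen. The 6 floral genes were well above background on every inflorescence array, and the root genes CASP1, EXPA7 and RHD6 on every seedling array and on no inflorescence array. The root genes SHR, SCR and COBL9 were well above background on every inflorescence array too. Of the 8 root markers, 6 were higher and 2 lower in wild-type seedlings than in wild-type inflorescences. The lower ones were SHR (−0.74, limma adjusted p = 1.29e-08) and COBL9 (−1.48, limma adjusted p = 9.58e-10). What part the marker changes between genotypes have in the small RNA genes' ratios was not tested.

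Among other proteins of microRNA production more fell than rose. Of 20 processing factors, such as the cap-binding subunits and the splicing-linked factors that recruit DCL1, 10 fell and 2 rose in inflorescences, with a median of −0.14. In seedlings 13 fell and 2 rose, with a median of −0.19. The background was 27.5% lower and 26.2% higher in inflorescences, and 29.3% and 28.6% in seedlings. Only GRP7, a glycine-rich RNA-binding protein, met the rule for naming, in seedlings, where its ratios were 1.38, 0.31, 0.84 and 0.54 and it rose by 0.77 ± 0.16 (limma adjusted p = 0.00196). Of 5 enzymes that trim or tail microRNAs, 1 rose and 1 fell in inflorescences, and in seedlings limma called none, nor did any have an unadjusted p under 0.05.

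Among the other argonautes and their partners 5 of 12 rose and 2 fell in inflorescences (background 26.2% higher, 27.5% lower). In seedlings 4 rose and 4 fell, near the background of 28.6% and 29.3%. AGO9, an argonaute known for its part in ovules, rose in inflorescences, at 1.18, 1.03, 1.13 and 1.15 on the 4 arrays (1.12 ± 0.05, limma adjusted p = 2.44e-07), 117% above wild type. Its seedling estimate was 0.64 ± 0.05 (limma adjusted p = 4.02e-06), where the wild-type channel was well above background on 2 of 4 arrays. That size depends on the background correction, since it was 1.44 with a normexp offset of 0, 1.36 in the deposited table and 2.03 with the scanner software's log ratio. AGO5, a germline argonaute, rose in inflorescences at 1.01, 0.84, 0.79 and 0.66 (0.83 ± 0.05, limma adjusted p = 1.38e-06), and was not well above background on any wild-type seedling array. AGO9 and AGO5 were thus high on the same arrays on which AGO1 and AGO7 were low.

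AGO3 rose in seedlings at 0.72, 0.99, 0.89 and 1.07 (0.92 ± 0.06, limma adjusted p = 1.2e-06), and its estimate was 1.48 with the scanner software's log ratio. In inflorescences AGO3 rose by 0.22 (limma adjusted p = 0.00876). AGO2, which takes part in antiviral defence and is close to AGO3 in sequence, rose in inflorescences by 0.29 ± 0.05 (limma adjusted p = 0.0015; with median centring 0.18, 0.0557) and was at 0.06 in seedlings (limma adjusted p = 0.382). AGO10, the nearest relative of AGO1, was at −0.06 in inflorescences (limma adjusted p = 0.342) and −0.16 in seedlings (limma adjusted p = 0.0203), a call lost without seedling replicate 2, 3 or 4 (adjusted p 0.0583 to 0.101), without the dye term (0.0936) and with each tissue fitted alone (0.0511). Its estimates lay closer to 0 than those of AGO1 in each tissue.

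Of the remaining dicers, DCL2, which makes siRNAs against viruses, was at 0.07 and 0.03 (limma adjusted p = 0.208 and 0.582). With median centring it passed as lower in seedlings (−0.15, limma adjusted p = 0.027). DCL3, which makes the siRNAs of DNA methylation, was at −0.12 in inflorescences (limma adjusted p = 0.0981) and passed there with median centring (−0.22, 0.0187) or without inflorescence replicate 4 (−0.19, 0.0332). In seedlings DCL3 fell by 0.21 (limma adjusted p = 0.011, and 0.0705 without seedling replicate 3), and was at −0.38 with median centring. RDR2, the polymerase that supplies DCL3, fell by 0.21 (limma adjusted p = 0.00326) in inflorescences and by 0.13 (limma adjusted p = 0.0313) in seedlings, the seedling call being lost without seedling replicate 2, 3 or 4 and with each tissue fitted alone. With median centring RDR2 was at −0.32 and −0.31. In this group of 12, 5 fell and 2 rose in each tissue. The background was 27.5% lower and 26.2% higher in inflorescences, and 29.3% and 28.6% in seedlings. RDR1, a polymerase induced in defence, rose in seedlings at 0.92, 1.02, 0.78 and 0.84 (0.89 ± 0.05, limma adjusted p = 3.95e-07). SDE3, an RNA helicase that acts with RDR6 in silencing, gave ratios of −0.48, −0.66, −0.70 and −0.77 in inflorescences and −0.28, −0.53, −0.66 and −0.72 in seedlings. It fell by 0.65 (SE 0.05, limma adjusted p = 8.66e-06) and by 0.55 (SE 0.05, limma adjusted p = 1.98e-05). SDE5 and DRB4 of this group are named after their values were seen. SDE5 rose by 0.42 in inflorescences and 0.39 in seedlings (limma adjusted p = 9.46e-05 and 0.00012). DRB4 was at −0.02 and 0.11 (limma adjusted p = 0.774 and 0.134).

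Among 13 genes of RNA-directed DNA methylation, the nuclear siRNA pathway, 10 fell and 2 rose in inflorescences (background 27.5% lower, 26.2% higher) and 10 fell and 3 rose in seedlings (29.3% and 28.6%), with medians of −0.27 and −0.26. The genes that rose, named after their values were seen, were RDM1 (0.43 in each tissue), CLSY1 (0.12 and 0.24) and, in seedlings, NRPD1 (0.21). DRD1, a chromatin remodeller of the pathway, fell by 0.50 and 0.57 (SE 0.04 in each, limma adjusted p = 9.61e-06 and 3.6e-06). IDN2, an RNA-binding protein of the pathway, fell by 0.68 (SE 0.05, limma adjusted p = 5.87e-06) in inflorescences. In seedlings IDN2 was at −0.33 (limma adjusted p = 0.000415). SHH1, which binds histone H3 and recruits RNA polymerase IV, fell by 0.51 (SE 0.04, limma adjusted p = 7.07e-06) in seedlings. Its inflorescence estimate was −0.48 (limma adjusted p = 1.4e-05).

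**Figure D4:**
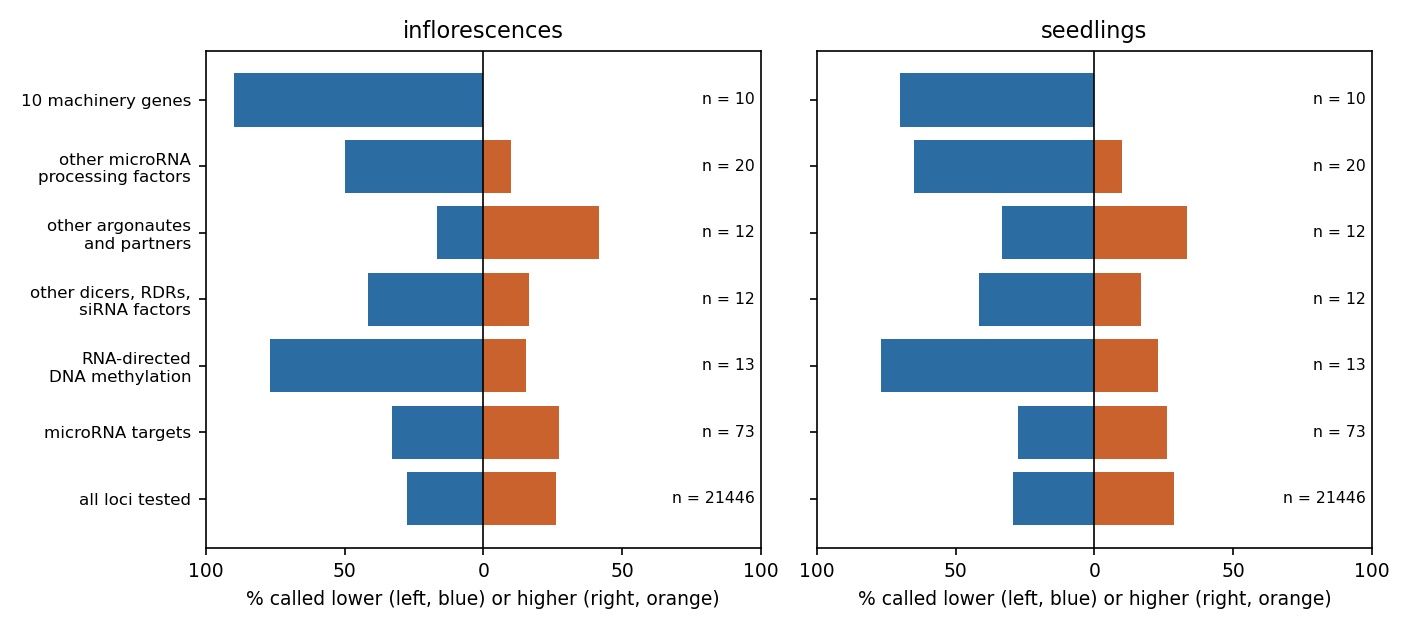
Share of each gene group called lower (blue, to the left) or higher (orange, to the right) in paps1-1 in inflorescences and seedlings, with the number of genes tested at the right. The 10 machinery genes are lower in 90% and 70%, and all 21446 loci in 27.5% and 29.3%.

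Of 14 microRNA and TAS loci looked for, TAS3 and MIR162A had a probe that was kept, and the other 12 were not analysed here. These probes measure the long precursor transcript, not the small RNA. TAS3 (AT3G17185), the substrate of AGO7, gave ratios of −0.14, −0.12, −0.09 and −0.31 in inflorescences. In seedlings they were 0.42, 0.91, 0.52 and 0.73, with no overlap between tissues. TAS3 was at −0.16 ± 0.08 in inflorescences (limma adjusted p = 0.0929), which passed with median centring (−0.25, 0.0469), with each tissue fitted alone (0.028) and without seedling replicate 1 (0.0329). It rose by 0.65 ± 0.08 in seedlings (limma adjusted p = 5.7e-05), 56.5% above wild type. The difference between tissues was 0.81 ± 0.11 (limma adjusted p = 0.000446). Such a difference was called higher at 3501 of 21446 loci, AGO7 among them, and cannot be told apart from a difference between slides.

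MIR162A (AT5G08185), a precursor of the microRNA that targets DCL1, gave inflorescence ratios of −0.48, −0.71 and −0.82 on replicates 1, 3 and 4. Its spot on replicate 2 was an outlier and was left out. In seedlings the ratios were 0.02, 0.06, −0.41 and −0.34, lower on the arrays with the mutant in Cy3. MIR162A fell by 0.61 (SE 0.06, limma adjusted p = 2.57e-05) in inflorescences, where DCL1 fell too. In seedlings it fell by 0.17 (SE 0.05, limma adjusted p = 0.0121), a call lost without seedling replicate 3 (limma adjusted p = 0.0769), without the dye term (0.139) and in the deposited table (0.056). With median centring it was −0.36.

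The auxin response factors that TAS3 siRNAs act on were lower where they were called. ARF2 gave ratios of −0.15, −0.29, −0.05 and 0.08 in inflorescences and −0.18, −0.61, −0.62 and −0.63 in seedlings. Seedling replicate 1 thus stood apart from the other 3. ARF2 was at −0.10 ± 0.08 in inflorescences (limma adjusted p = 0.334) and fell by 0.51 (SE 0.08, limma adjusted p = 0.000484) in seedlings, and the dimmer of its 2 probes averaged −0.29 and −0.83. ARF3 fell by 0.22 (SE 0.06, limma adjusted p = 0.009) in inflorescences, a call lost without inflorescence replicate 2 (limma adjusted p = 0.0651), and was at 0.01 in seedlings (limma adjusted p = 0.907). ARF4 fell by 0.21 (limma adjusted p = 0.00857) and by 0.18 (limma adjusted p = 0.0182). The ARF4 call in inflorescences was lost without inflorescence replicate 2 (limma adjusted p = 0.0632), and that in seedlings without seedling replicate 3 or 4 (limma adjusted p = 0.0836 and 0.0956), and the seedling estimate was −0.33 with median centring.

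**Figure D5:**
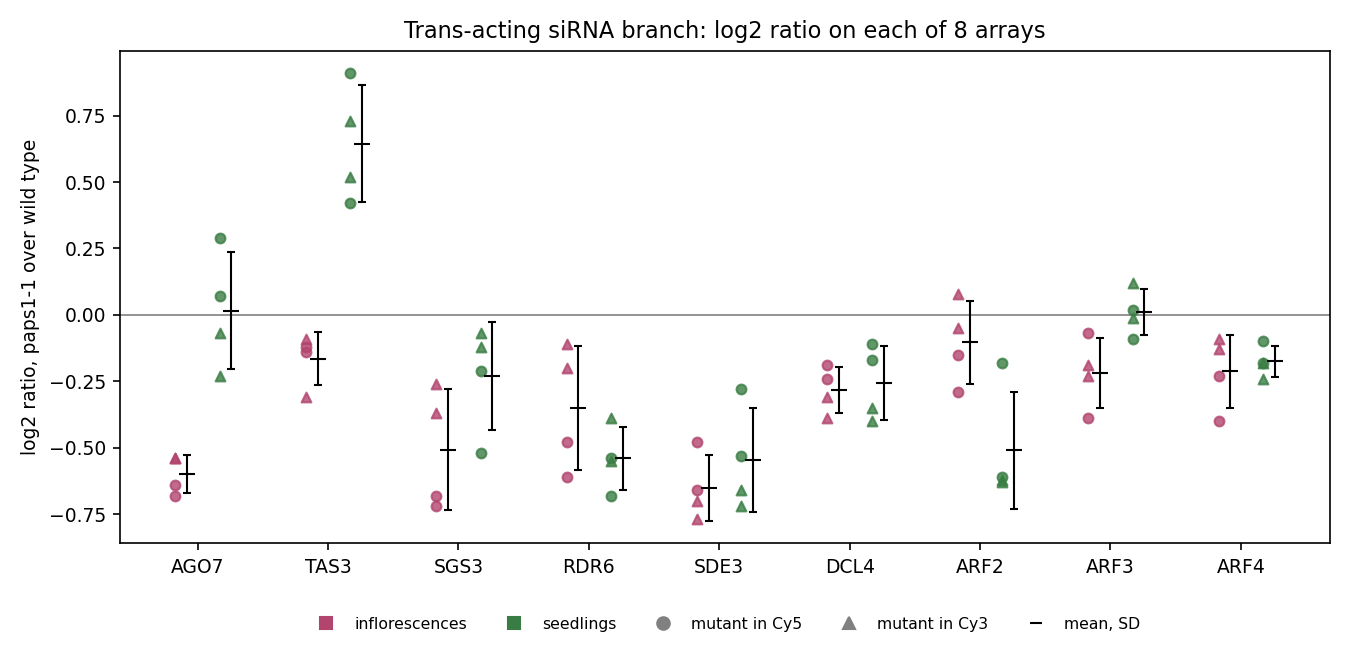
Log2 ratio of paps1-1 over wild type on each array for genes of the trans-acting siRNA branch and the ARF genes downstream, in magenta for inflorescences and green for seedlings, with circles for the mutant in Cy5, triangles for Cy3, and black for the mean ± SD. The ratios of SDE3 are low in both tissues, and those of AGO7 and TAS3 are higher in seedlings than in inflorescences. The siRNA factors SDE5, which rose in both tissues, and DRB4, which was not called, are not drawn.

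With the processing used here, transcripts that microRNAs target did not shift to one side. Of 73 tested, 20 rose and 24 fell in inflorescences (median −0.04). In seedlings 19 rose and 20 fell (median −0.03). These counts were close to the background in each direction. They moved with the settings: 15 to 23 rose and 16 to 28 fell in inflorescences, and 12 to 21 and 15 to 34 in seedlings. In inflorescences the targets that met the rule for naming included the growth-regulating factors GRF9, which fell by 0.79 (limma adjusted p = 3.37e-06), and GRF8, which rose by 0.63 (limma adjusted p = 1.32e-05), both targets of miR396. SPL11 and CUC1, transcription factors of phase change and organ boundaries, fell by 0.59 and 0.55 (limma adjusted p = 8.68e-06 and 1.1e-05). The nuclear factor subunit NFYA3 rose by 0.74 (limma adjusted p = 2.31e-05) and the sulfate transporter SULTR2;1 by 0.92 (limma adjusted p = 1.8e-05). In seedlings SPL11, GRF9 and SULTR2;1 were called with the same sign (−0.47, −0.38 and 0.56, limma adjusted p = 2.9e-05, 0.000289 and 0.000363). CUC1 and NFYA3 were not called there, and GRF8 was not well above background on any seedling array.

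In seedlings the laccases LAC3 and LAC12, enzymes of the cell wall, rose by 1.07 and 0.63 (limma adjusted p = 7.11e-06 and 5.65e-05; LAC12 was at 1.00 to 1.24 with offset 0, the software's log ratio or the deposited table), and the superoxide dismutase CSD1 rose by 0.56 (limma adjusted p = 1.83e-05). The senescence regulator NAC092 rose by 0.89 (limma adjusted p = 2.15e-05) and the ATP sulfurylase APS3 by 0.73 (limma adjusted p = 1.02e-05). SNZ, a repressor of flowering, fell by 0.91 (limma adjusted p = 4.79e-07). In inflorescences NAC092 rose too, by 0.41 (limma adjusted p = 0.00362), and LAC12, CSD1, APS3 and SNZ were not called. LAC3 was not well above background on any inflorescence array. The microRNAs themselves were not measured.

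The 10 genes did not follow each other closely from array to array. Over the 8 arrays, which share tissue, slide and dye, Pearson's r between their ratios ran from −0.90 for HYL1 with DCL4 to 0.78 for HYL1 with RDR6. HYL1 was lower, and DCL4 higher, on arrays with the mutant in Cy5. The loci whose ratios over the 8 arrays were most like those of AGO7, the gene with the largest single change, were AT1G35560 (r = 0.998), MSL10 (r = 0.995) and CYP91A2 (r = 0.992). Their estimates were −0.37 and 0.25, −0.01 and 0.52, and 0.18 and 0.93 in inflorescences and seedlings, and with median centring AT1G35560 was at 0.06 and MSL10 at 0.34 in seedlings. The likeness lay in the step between tissues and dyes and not in the level of the ratio.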

How the data were processed

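The 8 arrays were scanned and read by Feature Extraction 10.7.3.1, per the file headers. The median spot intensity and local background intensity were deposited unnormalized. The scanner files' deposited log10 ratio is red over green after that software's background and dye correction. The deposited value table holds log2 ratios that the authors had turned to mutant over wild type, as checked against the scanner values (r of 0.802 to 0.908 across probes, medians of −0.02 to 0.02). The tool limma is among the tools in the submitters' processing notes. Not given in the sources used here: its settings and the labelling primer.

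Signals were corrected with normexp (offset 50) and normalized by loess within arrays in limma 3.58.1 (R 4.3.3, data.table version 1.17.8), with control and outlier spots given no weight. Outlier spots were left out. A probe was kept if well above background on all 4 arrays of a genotype and tissue and measured on at least 6 arrays, and a locus with several kept probes was read from the brightest. The fit had 5 residual degrees of freedom, to which moderation added 4.86. Channel levels were normalized between arrays (Aquantile) and fitted with an intraspot correlation of 0.312, estimated on every 10th locus, with 11 residual degrees of freedom. Intervals are at 95% and unadjusted. The fit was run on simulated ratios with a small set of loci changed, in inflorescences only. That run did not cover the normalization or changes as widespread as those called here.

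Median signal over background was 2.66 to 5.02 in red and 3.35 to 5.51 in green, 56.3% to 62% of spots were well above background, and 0 were saturated. Precision is limited by the number of arrays.

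The genes and lists were chosen with earlier results of these data known. All 10 genes are named, with AGO2, DCL2, DCL3, AGO10, RDR2, the ARF genes, TAS3 and MIR162A whatever their values. From each other list and tissue at most 6 loci are named, the largest with adjusted p under 0.05, a log2 change of at least 0.5 and 1 sign on 4 arrays; for AGO7 the 3 loci most like it are named. Symbols come from a RefSeq table that held 25449 of the 25665 loci. The files name no genome build or sequence, so no positions or sequences are printed.

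Replicate numbers are shared by the tissues. Same-numbered arrays deviated together with r of 0.119, 0.292, 0.32 and 0.152, but they also share the dye of the mutant. With the dye effect removed, r was −0.00252 and 0.0341, so the pairing in the data goes with the dye. Alternatives covered background correction, normalization, the deposited table, filters, probes per locus, the dye term, a replicate block, each tissue alone and each array left out.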

Additional observations from a re-analysis of the deposited data

Results flagged for a closer look

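The AGO7 response differed between tissues by 0.61 on the log2 scale (limma adjusted p = 0.00155), from −0.60 in inflorescences, below 0 on 4 of 4 arrays, to 0.01 in seedlings. The SGS3 response differed by 0.28 (limma adjusted p = 0.0242), from −0.51 to −0.23, both below 0 on 4 of 4 arrays. In seedlings ARF2 was at −0.18 on replicate 1, far from the −0.63 to −0.61 of the other 3 arrays. Of 20 sets of 4 arrays checked for the machinery genes 0 had such a separate array, and of 38 sets for the other named genes 1 had, where chance gives about 1 in 20.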

How the results depend on the processing

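The calls of AGO1, HYL1, HEN1, RDR6 and DCL4 in both tissues, and of DCL1, SGS3 and AGO7 in inflorescences, held in all 19 settings tried, and the AGO7 difference held in all 18 (0.51 to 0.69). SE in seedlings lost its call without the dye term (limma adjusted p = 0.0862) and SGS3 in seedlings too (0.0558). HST in inflorescences lost it in 11 of 19 settings (adjusted p up to 0.165), and HST and DCL1 in seedlings gained it in 6 and 3. The SGS3 difference was lost in 6 of 18.

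Centring on the array median in place of loess raised the share of lower loci among calls from 51.3% to 61% in inflorescences, from 50.6% to 67.6% in seedlings and from 49.3% to 63.6% for the difference, which then had 2939 called loci in place of 6908 and 1 higher gene of the 10. That gene count was also 1 with the software's log ratio and 1 without the dye term. With no normalization between arrays 80.8% of called loci were lower in wild-type seedlings in place of 53.3%, and 0 of the 10 genes were higher. The causes were not tested.

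With each array left out in turn, called loci ranged from 9291 to 12638 in inflorescences, 10331 to 12388 in seedlings, 4930 to 7803 for the difference and 16905 to 17405 between wild-type tissues. Of the 10 genes, 8 to 9 were lower in inflorescences and 6 to 8 in seedlings. For the difference 1 to 2 were higher and 0 to 2 lower, and 9 were lower and 1 higher between wild-type tissues throughout.

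Some estimates changed sign. With median centring SE was −0.02 in inflorescences, AGO7 −0.17 in seedlings, and DCL2 −0.02 and −0.15, the latter called (limma adjusted p = 0.027); AGO2 (−0.09) and ARF3 (−0.10) turned in seedlings. With the software's log ratio AGO7 was −0.01 and DCL2 0.00 in seedlings. With an array left out AGO7 ranged from −0.08 (without seedling replicate 1) to 0.09 in seedlings; without replicate 2 or 3 ARF3 was −0.01 and −0.02, and MSL10 was 0.04 and 0.03 without inflorescence replicate 1 or 2. The AGO1 difference was −0.05 with median centring, −0.01 with the software's log ratio, and from −0.03 (without inflorescence replicate 2; −0.02 without seedling replicate 2) to 0.07 with an array left out. The HST difference was −0.05 with offset 0, −0.07 with the software's log ratio, −0.04 in the deposited table, 0.00 without inflorescence replicate 3 and −0.03 without seedling replicate 1. The DCL4 difference was −0.02 with offset 0, median centring and the deposited table. The HYL1 difference was 0.03 and 0.00 without inflorescence replicates 1 and 4, and 0.02 and 0.03 without seedling replicates 2 and 4. RDR6 between wild-type tissues was −0.37 with no normalization between arrays.

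With the replicate number as a block, 11056, 11951, 6150 and 17163 loci were called in the 4 comparisons, and 8 of the 10 genes were lower in inflorescences and 7 in seedlings. HST in inflorescences (−0.12, limma adjusted p = 0.0709) was the call of a machinery gene that this changed. Over all settings, lower calls among the other processing factors ranged from 5 to 10 in inflorescences and 9 to 16 in seedlings, among DNA methylation genes from 8 to 11 and 7 to 10, among other dicers and polymerases from 3 to 5 and 3 to 7, and among microRNA targets from 16 to 28 and 15 to 34.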
